A study of Mus musculus with 3 samples.

Results

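The genes described here are 10 cyclins and cyclin-dependent kinases (CDKs), most of which act in G1 and S phase. The list is *Ccnd1*, *Ccnd2*, *Ccnd3*, *Cdk4*, *Cdk6*, *Cdk2*, *Ccne1*, *Ccne2*, *Ccna2* and *Ccnb1*. They were taken by symbol, and all 10 were found among the 22698 Ensembl genes of the deposited tables. RNA-seq was performed on melan-a cells, pigment cells of the mouse that grow without limit in culture, with the C57BL/6J background and, by their labels, from Ink4a-ARF-/- animals. The cells received no treatment beyond their growth medium, which held 10% fetal bovine serum, 200 nM of the phorbol ester TPA and 200 pM cholera toxin, and there is no other condition to compare them with. The 3 replicates carry the labels 1, 3 and 4, and whether they came from separate cultures is not stated, so the spread between them may be technical.

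D-type cyclins (*Ccnd1*, *Ccnd2* and *Ccnd3*) are the cyclins whose transcription responds to growth signals. They bind the kinases CDK4 and CDK6, which begin the phosphorylation of the RB protein and so release E2F transcription factors. E-type cyclins with CDK2 complete this step and start S phase, cyclin A2 with CDK2 acts during S phase, and cyclin B1 with CDK1 drives entry into mitosis. INK4 proteins, the inhibitors of CDK4 and CDK6, include INK4a, which *Cdkn2a* encodes beside ARF, a protein outside this family. In melanocytes the loss of this locus, or changes in CDK4 and cyclin D1, are well known from melanoma.

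Values are FPKM, that is, reads per kilobase of gene and per 1000000 reads, with library sizes scaled by TMM, the trimmed mean of log ratios between libraries. The scaled library sizes read from the whole-read steps of short genes were 53800000, 47000000 and 66200000 reads in replicates 1, 3 and 4. On any of the 10 genes, 3 reads came to no more than 0.0283 FPKM, and the lowest value of any of them rested on about 802 reads. The melanocyte label was matched by its markers. In every replicate 8 of 8 melanocyte genes lay above 1 FPKM, where 44.1% of all genes reached 1 FPKM. Their means ran from 22.1 FPKM for *Mitf* to 3140 for *Tyrp1*, with a median of 522. Of 5 keratinocyte and 5 fibroblast markers none reached 1 FPKM in every replicate, and the summed level ranged from 0.36 to 0.7 and from 0.18 to 0.24 FPKM, with *Krt1*, *Trp63* and *Lum* at 0 throughout. Because the label names a deletion, *Cdkn2a* was read first. Its levels in replicates 1, 3 and 4 were 19.24, 16.49 and 24.32 FPKM. A value per gene does not show which exons the reads came from, so it cannot check a deletion of part of the gene, and the lines are called Ink4a-ARF-/- here only as the labels have it.

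The 10 genes were expressed at at least 1 FPKM in every replicate (10 of 10), where 44.1% of all genes were. Their median level was 57.8 FPKM, beside 0.277 FPKM over all genes and 11.2 FPKM over the 10011 genes that passed this limit. They spanned a wide range of levels. In descending order of mean FPKM they were *Ccnd1*, *Ccnd3*, *Ccnd2*, *Cdk4*, *Ccna2*, *Cdk2*, *Ccne1*, *Ccnb1*, *Cdk6* and *Ccne2*. Among neighbours in this order, the ranges over the replicates overlapped for *Ccna2* and *Cdk2* and for *Cdk6* and *Ccne2*, and not for the other 7 neighbouring pairs.

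**Figure D1:**
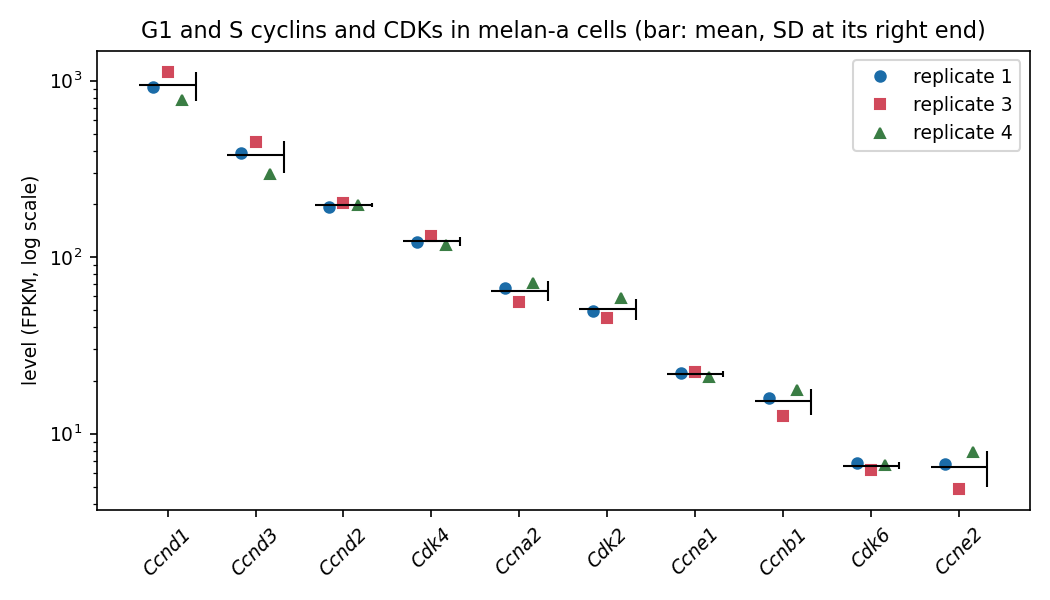
Level in FPKM (log scale) of each of the 10 genes, ordered by mean, with a symbol for each of the 3 replicates, a horizontal bar at the mean and a vertical bar of 1 SD at its right end. *Ccnd1* lay between 779.51 and 1123.71 FPKM, and *Cdk6* and *Ccne2* lay below 8 FPKM in every replicate.

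The D-type cyclins held the first 3 places. *Ccnd1*, the gene of cyclin D1 (mm9 chr7:152115836-152125774, minus strand), measured 920.4, 1123.71 and 779.51 FPKM in replicates 1, 3 and 4, a mean of 941 ± 173 (SD, n = 3), and was gene 29 of 22698. *Ccnd3*, the gene of cyclin D3 (mm9 chr17:47642000-47736632, plus strand), measured 388.86, 450.9 and 294.54 FPKM in the same order, a mean of 378 ± 78.7 (SD, n = 3), and was gene 112. Both were highest in replicate 3 and lowest in replicate 4. *Ccnd2*, the gene of cyclin D2 (mm9 chr6:127075797-127101066, minus strand), measured 192.62, 202 and 198.64 FPKM, a mean of 198 ± 4.75 (SD, n = 3), and was gene 256. Its coefficient of variation of 2.4% lay at percentile 4.97 of the expressed genes, whose median was 11.4%. Those of *Ccnd1* (18.4%) and *Ccnd3* (20.8%) lay at percentiles 75.9 and 82.3. After the GC adjustment described below, the log2 ratio of replicate 3 to replicate 4 went from 0.61 to 0.02 for *Ccnd3*. For *Ccnd1* it went from 0.53 to 0.43.

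Of the summed FPKM of the 3 D-type cyclins, *Ccnd1* made up 61.9% ± 1.15, *Ccnd3* 24.8% ± 1.46 and *Ccnd2* 13.3% ± 2.15 (SD, n = 3). No replicate departed from this order. Within a replicate, *Ccnd1* exceeded *Ccnd3* by a log2 ratio of 1.24, 1.32 and 1.4 in replicates 1, 3 and 4, a mean of 1.32 ± 0.08 (SD, n = 3), which is 2.5-fold, and in reads per gene the mean was 2.09. The ratio between *Ccnd1* and *Ccnd2* was 2.23 ± 0.25 on the log2 scale, or 4.71-fold. The ratio between *Ccnd3* and *Ccnd2* was the least even of the 3, at 1.01, 1.16 and 0.57 on the log2 scale, a mean of 0.91 ± 0.31. This last order depended on the division by length. *Ccnd2* has 5701 bases of annotated exons and *Ccnd3* 2255, and in reads per gene the log2 ratio of *Ccnd3* to *Ccnd2* was -0.42.

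Each of the 9 ratios tested kept its sign in 3 of 3 replicates, and each mean was at least 2 SDs away from 0. An exact two-sided sign-flip permutation test over 3 replicates cannot go below p = 0.25, and this was the value for every one of the 9, before and after Benjamini-Hochberg adjustment. The sizes and the spread between replicates are therefore what each comparison rests on. This spread does not include errors that the 3 replicates share, such as those from gene length, copied sequence or overlapping genes.

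**Figure D2:**
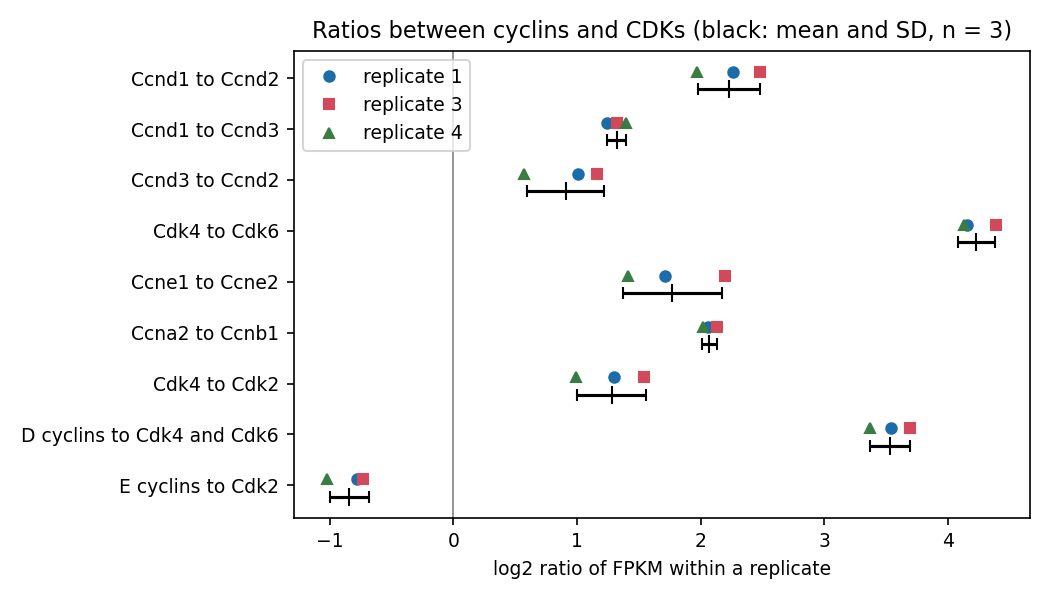
Log2 ratio of FPKM within each replicate for the 9 pairs compared, with a symbol for each replicate and, in black, the mean and SD (n = 3). The Cdk4 to Cdk6 ratio lay furthest from 0, at 4.13 to 4.39, and the ratio of the E-type cyclins to Cdk2 was the one below 0.

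Among the kinase partners of the D-type cyclins, *Cdk4* was expressed at a far higher level than *Cdk6*. *Cdk4* (mm9 chr10:126500590-126504976, plus strand) measured 122.02, 131.62 and 116.51 FPKM in replicates 1, 3 and 4, a mean of 123 ± 7.65 (SD, n = 3), and was gene 448 of 22698. *Cdk6* (mm9 chr5:3343893-3523218, plus strand) measured 6.86, 6.26 and 6.66 FPKM, a mean of 6.59 ± 0.306 (SD, n = 3), and was gene 6659, below the median of the expressed genes. Replicates 1, 3 and 4 had ratios of 17.8, 21 and 17.5, and the mean log2 ratio was 4.23 ± 0.15 (SD, n = 3). *Cdk4* thus made up 94.9% ± 0.478 of the summed FPKM of the pair. With the length of the longest transcript (2053 bases for *Cdk4* and 3735 for *Cdk6*) the log2 ratio was 4.89, and in reads per gene it was 4.02. The sums of the D-type cyclins were 1502, 1777 and 1273 FPKM in replicates 1, 3 and 4, and those of *Cdk4* and *Cdk6* were 128.9, 137.9 and 123.2. The cyclins exceeded the kinases by a mean log2 ratio of 3.53 ± 0.16 (SD, n = 3), or 11.6-fold, in RNA, which does not give the ratio of the proteins. With the length of the longest transcript this log2 ratio was 2.94.

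The promoters of this pair are shown because their levels differed most among the paralogs compared. In both, the capitals mark the E-box CACGTG, which reads the same on either strand and is the site that MYC and MITF family proteins are known to bind. The sequences span 250 bases before to 50 bases after the RefSeq start and are from build GRCm38.p6, plus strand, at chr10:127063285-127063584 for *Cdk4* and chr5:3343643-3343942 for *Cdk6*.
Cdk4: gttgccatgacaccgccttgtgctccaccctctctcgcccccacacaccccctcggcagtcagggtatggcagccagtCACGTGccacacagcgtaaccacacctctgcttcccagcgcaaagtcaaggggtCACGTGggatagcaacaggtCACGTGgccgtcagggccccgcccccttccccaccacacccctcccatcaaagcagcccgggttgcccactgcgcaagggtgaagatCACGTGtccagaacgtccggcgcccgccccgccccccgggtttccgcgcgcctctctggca
Cdk6: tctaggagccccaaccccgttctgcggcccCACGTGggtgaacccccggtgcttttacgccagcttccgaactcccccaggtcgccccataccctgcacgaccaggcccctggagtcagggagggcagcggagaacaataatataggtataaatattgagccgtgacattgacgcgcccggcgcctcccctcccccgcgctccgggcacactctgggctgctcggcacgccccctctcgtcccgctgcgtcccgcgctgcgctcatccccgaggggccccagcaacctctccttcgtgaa
The *Cdk4* window held 4 E-boxes, whose first bases lie at -172, -118, -98 and -11 from the start. The *Cdk6* window held 1, whose first base lies at -220. Of 32851 mouse promoter windows of this length, 7.15% held at least 1 such match and 0.0244% (8 windows) held 4 or more. The limit of 4 equals the count in *Cdk4* itself, so this share is not a test. Other motifs were searched too and are not marked. The GC box GGGCGG had 3 matches in *Cdk4* and 0 in *Cdk6*. TATAAA and the E2F-type TTTNNCGC each had 0 in *Cdk4* and 1 in *Cdk6*. Whether any of these matches bears on the levels was not tested. Of the 10 genes 6 had an entry in the promoter table. In the entries for *Ccnd3*, *Cdk2*, *Ccne1* and *Ccnb1* the letters CACGTG were not found. A match of letters is a description and does not show binding.

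*Cdk2*, the kinase partner of the E-type cyclins and of cyclin A2 (mm9 chr10:128134995-128142107, minus strand), measured 49.53, 45.14 and 58.6 FPKM in replicates 1, 3 and 4, a mean of 51.1 ± 6.86 (SD, n = 3), and was gene 1337. It was lower than *Cdk4* in each replicate, by a mean log2 ratio of 1.28 ± 0.28 (SD, n = 3), or 2.43-fold, and by 1.94 with the length of the longest transcript. *Ccne1*, the gene of cyclin E1 (mm9 chr7:38883003-38892553, minus strand), measured 22.08, 22.4 and 21.02 FPKM, a mean of 21.8 ± 0.722 (SD, n = 3). *Ccne2*, the gene of cyclin E2 (mm9 chr4:11118498-11131926, plus strand), measured 6.77, 4.88 and 7.89 FPKM, a mean of 6.51 ± 1.52 (SD, n = 3). *Ccne1* held nearly the same level in the 3 replicates, whereas *Ccne2* varied most of the 10 genes as deposited, with a coefficient of variation of 23.4%. After the GC adjustment described below, the log2 ratio of replicate 3 to replicate 4 for *Ccne2* went from -0.69 to -0.06. *Ccne1* made up 77.1% ± 4.73 of the summed FPKM of the E-type cyclins, with ratios to *Ccne2* of 3.26, 4.59 and 2.66. The E-type cyclins together (28.3 ± 0.924 FPKM) stood below *Cdk2*, at 0.558 of its level (mean log2 ratio -0.84 ± 0.16, SD, n = 3). With the length of the longest transcript this log2 ratio was -0.47. The sum leaves out cyclin A2, the other partner of CDK2, and *Ccna2* alone (64.5 ± 8.31 FPKM) exceeded *Cdk2* in 3 of 3 replicates. Levels of RNA do not give the ratio of the proteins here either.

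*Ccna2*, the gene of cyclin A2 (mm9 chr3:36463788-36471072, minus strand), measured 66.54, 55.38 and 71.62 FPKM in replicates 1, 3 and 4, a mean of 64.5 ± 8.31 (SD, n = 3), and was gene 1028. *Ccnb1*, the gene of cyclin B1 (mm9 chr13:101548605-101556525, minus strand), measured 15.91, 12.63 and 17.66 FPKM, a mean of 15.4 ± 2.55 (SD, n = 3), and was gene 4005. Both were lowest in replicate 3 and highest in replicate 4. Between replicates their ratio was the steadiest of the 9, at 4.18, 4.38 and 4.06, a mean log2 ratio of 2.07 ± 0.06 (SD, n = 3). Its size depended on the gene length used, since with the length of the longest transcript the log2 ratio was 1.56. After adjustment for GC content the log2 ratio of replicate 3 to replicate 4 went from -0.37 to -0.13 for *Ccna2*. For *Ccnb1* it went from -0.48 to -0.02. The RNA came from bulk cultures, in which the number of cells that express a gene and its RNA per cell cannot be told apart. The level of *Ccnb1* is uncertain. Copies at 97% identity or more over at least 90 bases lay elsewhere in mm9 for 45.5% of its annotated exon bases, on 4 chromosomes and up to 706 bases long. How reads that fit several places were treated is not given in the sources used here. For *Cdk6* the share was 8.22% and for *Cdk4* 3.32%, and for the other 7 genes no such copy was found.

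The promoters of *Cdk2* and *Ccnb1* are shown because both genes, like *Ccna2* and *Ccne2*, were lowest in replicate 3 and highest in replicate 4 as deposited, although after GC adjustment the log2 ratio of replicate 3 to replicate 4 was -0.02 for *Ccnb1*. They are from GRCm38.p6, at chr10:128705002-128705301 and chr13:100786437-100786736, and are printed along the minus strand, on which both genes lie. Capitals mark the CCAAT box (CCAAT), an E2F-type site (TTTNNCGC) in *Cdk2* and the letters TTTAAA, as in the CHR element of late cell cycle genes, in *Ccnb1*, each searched on both strands. The marked matches do not overlap each other.
Cdk2: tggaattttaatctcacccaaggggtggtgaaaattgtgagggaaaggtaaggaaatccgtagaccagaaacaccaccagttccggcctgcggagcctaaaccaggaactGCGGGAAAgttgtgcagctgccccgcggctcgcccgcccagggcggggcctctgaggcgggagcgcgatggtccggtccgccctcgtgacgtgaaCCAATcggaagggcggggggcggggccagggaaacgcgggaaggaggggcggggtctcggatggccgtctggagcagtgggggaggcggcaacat
Ccnb1: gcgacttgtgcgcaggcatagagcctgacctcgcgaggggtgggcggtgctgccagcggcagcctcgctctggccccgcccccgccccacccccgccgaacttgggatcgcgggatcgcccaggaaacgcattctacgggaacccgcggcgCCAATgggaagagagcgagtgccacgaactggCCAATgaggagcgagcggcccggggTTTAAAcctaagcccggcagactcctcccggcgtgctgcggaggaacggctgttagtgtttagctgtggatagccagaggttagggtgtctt
*Ccnb1* had 2 CCAAT matches, at -99 and -67 from the start, and 1 TTTAAA match at -42. *Cdk2* had 1 CCAAT match at -45 and 1 E2F-type match at -140, the latter printed as its reverse complement. Genes without this order held some of the same letters, since TTTAAA was found once in *Ccne1*, TTTNNCGC once in *Cdk6* and CCAAT once in 1 of the entries of *Ccnd3*. Among all windows 37.4% held CCAAT, 11.7% held it 2 or more times, 13.2% held TTTAAA and 5.17% held TTTNNCGC.

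For 8 of the 10 genes the highest and the lowest values were those of replicates 3 and 4, and *Ccnd2* and *Cdk6* were the exceptions. Past 1.5-fold lay 2 of the 10 genes, as against 18.6% of the expressed genes. *Ccnd3* was higher in replicate 3 (1.53-fold, where 6.38% of the expressed genes were past 1.5-fold in this direction). *Ccne2* was higher in replicate 4 (1.62-fold, where 12.2% were). With 1 library on each side there is no test, and both counts are close to those of all genes. The values ran with base composition. In ascending order of the GC content of their exons, *Ccne2* (37.6%), *Ccnb1* (42.9%) and *Ccna2* (45.8%) had log2 ratios of replicate 3 to replicate 4 of -0.69, -0.48 and -0.37, and at the other end *Cdk4* (52%) and *Ccnd3* (59.6%) had 0.18 and 0.61. Spearman's rho between GC content and this ratio was 0.903 across the 10 genes and 0.779 across 10007 expressed genes, all of which share the same 2 libraries.

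When the median ratio of genes with like GC content was taken out of each replicate, the ratios of *Ccne2*, *Ccnb1*, *Cdk4* and *Ccnd3* moved to between -0.06 and 0.02, and the SD over the 10 genes fell from 0.43 to 0.2. After the adjustment 0 of the 10 genes lay past 1.5-fold, beside 5.54% of the expressed genes in either direction and 4.61% higher in replicate 4. *Ccnd1*, at 51.2% GC, kept a log2 ratio of 0.43 (0.53 before). *Cdk2*, at 49.7% GC, kept -0.37 (-0.38 before). The part of library preparation, depth or culture in these differences was not tested.

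**Figure D3:**
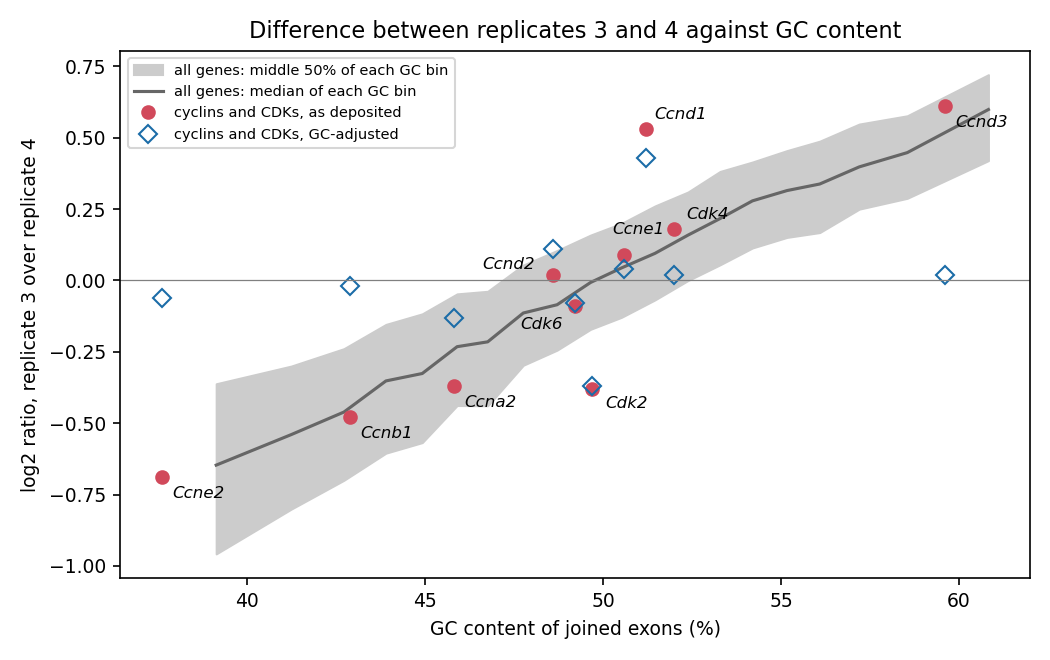
Log2 ratio of replicate 3 to replicate 4 against the GC content of the exons, for the 10 genes as deposited (filled) and after the GC adjustment (open), over the median and the middle 50% of all expressed genes in 20 GC bins. *Ccne2*, *Ccnb1*, *Ccna2* and *Ccnd3* followed the median of all genes, and *Ccnd1* and *Cdk2* stood off it by 0.43 and -0.37.

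By the paper's methods the libraries were made with a stranded mRNA kit. Reads of genes that overlap on opposite strands are kept apart only if strand was also used in counting, which is not given. The exons of other genes on the opposite strand covered 21.3% of the exon bases of *Ccnd1* (*Oraov1*), 18.6% of *Cdk4* (*Tspan31*), 17.4% of *Ccne2* (*Ints8*), 15.7% of *Ccnd3* (*Bysl*), 14.6% of *Ccna2* (*Exosc9*) and 1.61% of *Cdk6* (*Gm17590*). For *Ccnd2*, *Cdk2*, *Ccne1* and *Ccnb1* there was no such overlap, and on the same strand there was none for any of the 10.

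The other genes of the pathway were described from lists by how many reached 1 FPKM in every replicate, where 44.1% of all genes did. Of 7 CDK inhibitor genes 6 did, with a median of 20 FPKM. The highest was *Cdkn1a*, whose product inhibits cyclin-CDK complexes as a target of p53, at 323 FPKM, and the lowest was *Cdkn1c* at 0.47. Of the INK4 genes beside *Cdkn2a*, *Cdkn2b* had 68.3 ± 5.83, *Cdkn2c* 25.8 ± 4.28 and *Cdkn2d* 5.77 ± 0.616 FPKM (SD, n = 3). All 13 RB and E2F genes reached the limit, at a median of 7.92 FPKM, from *E2f2* at 1.49 to *E2f4* at 28.2. All 10 genes of the CDK-activating kinase, the CDC25 phosphatases, the WEE1 kinases and the CKS subunits did so too, from *Cdk7* at 3.79 to *Cks1b* at 56.9 FPKM. So did 11 of 11 genes of the ubiquitin ligases that degrade cyclins, from *Fbxw7*, which recognises cyclin E, at 1.91 to *Skp1a* at 78 FPKM.

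Among the other cyclins and CDKs of the cell cycle 3 of 5 reached the limit. *Ccnb2*, a B-type cyclin, led at 48.8 ± 5.39 FPKM (SD, n = 3) and *Cdk1*, the partner of cyclin B1, had 33.7 ± 1.32 FPKM (SD, n = 3). *Ccna1*, the germ line paralog of cyclin A2, stood at 0.16 FPKM, and *Ccnb3* was listed at 0 in each replicate. Of 17 licensing and DNA synthesis genes 16 passed, with a median of 17.4 FPKM and *Pcna*, the sliding clamp of DNA polymerase, highest at 68.4. *Orc1*, at 0.923 FPKM, was the 1 that did not. All 11 mitosis genes passed, at a median of 22.9 FPKM, from *Cenpe* at 4.43 to *Plk1* at 72.6. The median of the 10 cyclins and CDKs, 57.8 FPKM, stood above that of each of these lists.

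**Figure D4:**
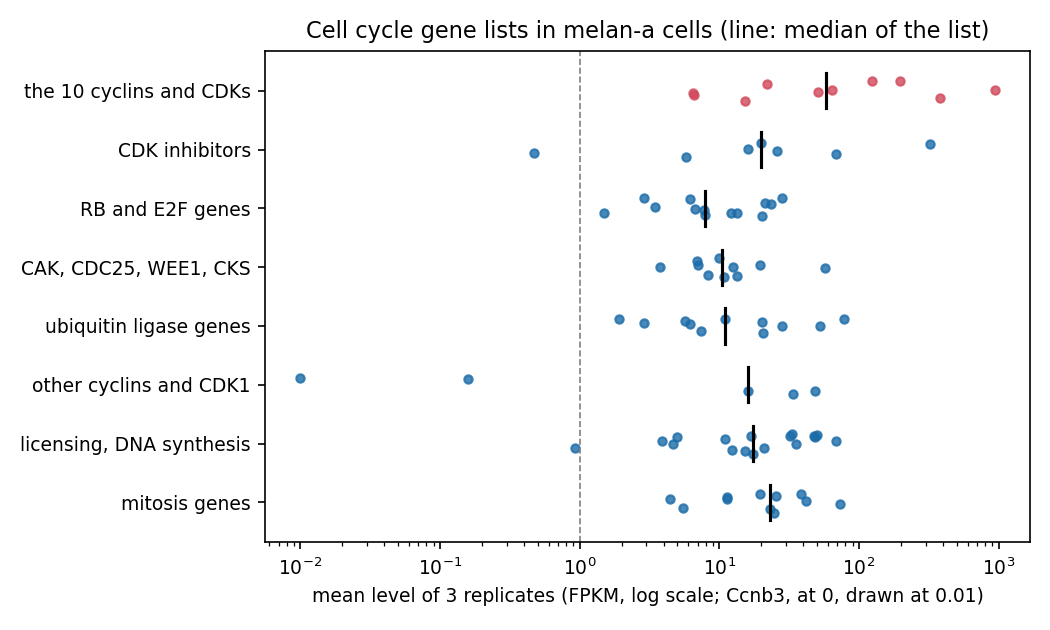
Mean level of the 3 replicates (FPKM, log scale) of each gene in the 10 cyclins and CDKs and in 7 other cell cycle lists, with a black line at the median of each list and a dashed line at 1 FPKM. The medians lay between 7.92 FPKM for the RB and E2F genes and 57.8 for the 10 cyclins and CDKs.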

How the data were processed

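RNA-seq libraries of 3 replicates of melan-a cells were analysed. Per the labels and the methods, the authors sequenced 3 lanes per replicate, trimmed the 10 5'-most bases, aligned with STAR 2.3.0e to mm9, took out reads of rRNA and used HTSeq 0.5.3p3 to count on genes of Ensembl 67. The submitters' processing notes also name edgeR. The authors deposited TMM-scaled FPKM, given to 2 decimals. How gene lengths were set is not given in the sources used here. Exons and GC content were taken from the mm9 genome with Ensembl 65 genes, in which 374 of 22698 genes were missing. For genes with several transcripts, low values lay nearer to whole reads with joined exons than with the longest transcript in each replicate. The mean distances in replicates 1, 3 and 4 were 0.195, 0.16 and 0.223 reads, against 0.221, 0.273 and 0.247 (33, 35 and 39 genes). Short genes with 1 transcript had 0.06, 0.055 and 0.081, so neither length fitted as closely, and read numbers are approximate.

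Levels were described by mean and SD. Ratios were formed within replicates without a pseudocount and tested with an exact two-sided sign-flip permutation test, adjusted over 9 pairs. GC adjustment removed the median log2 deviation of each of 20 GC bins per replicate. Copies were sought with blastn 2.17.0. Promoter sequences are from RefSeq (GRCm38.p6). The computation used numpy 2.4.6, scipy 1.17.1 and pandas 2.3.3 under Python 3.11.15 and was tested on simulated data. The genes, lists and tests were chosen with earlier results of these data known. A list of markers of 1 further cell type is not reported here.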

Additional observations from a re-analysis of the deposited data

How the results depend on the processing

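The alternatives were each replicate left out, values rescaled to sum to 1000000, GC-adjusted values, pseudocounts of 0.1 and 1 FPKM, reads per gene, other limits on low values and, chosen after seeing the data, the length of the longest transcript. Of the 9 ratios, 8 kept their sign under every alternative run. With the longest transcript the Cdk4 to Cdk2 ratio was 1.94 and that of the D-type cyclins to Cdk4 and Cdk6 2.94 on the log2 scale. The Ccna2 to Ccnb1 ratio was 1.56 and that of the E-type cyclins to Cdk2 -0.47 with this length. The Ccnd3 to Ccnd2 ratio turned to -0.42 on the log2 scale in reads per gene, where it is not divided by length. With a limit of 10 FPKM, 21.7% of all genes passed in place of 44.1%, and 8 of the 10 cyclins and CDKs, without *Cdk6* and *Ccne2*. After GC adjustment 0 of the 10 genes, and 5.54% of the expressed genes, lay past 1.5-fold between replicates 3 and 4. With no filter and a pseudocount of 1 the share of all genes was 6.11%. Of 50 alternative values for the levels of the 10 genes, 10 moved by more than the SD between replicates, and these were the 10 of the rescaling, which adds 1.34 to 1.48 to each log2 value. No paired analysis was possible because there is a single group. The number of replicates limited every test.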

Other observations

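Several mitosis genes were also lower in replicate 3 than in replicate 4, beyond what the 10 cyclins and CDKs showed. Of the 11 mitosis genes listed, 6 were past 1.5-fold in this direction, where 12.2% of the expressed genes were, and after GC adjustment 4 were, where 4.61% were. *Mki67*, the gene of the proliferation marker Ki-67, measured 24.89, 14.08 and 37.4 FPKM in replicates 1, 3 and 4, with a log2 ratio of replicate 3 to replicate 4 of -1.41, and -1.19 after adjustment. *Cenpe*, a kinetochore motor, measured 4.12, 2.03 and 7.15 FPKM, and *Cenpf* 5.02, 2.87 and 8.51, with adjusted log2 ratios of -1.35 and -1.1. *Kif11*, a spindle motor, had an adjusted ratio of -0.68. *Bub1* and *Top2a* moved from -0.99 and -0.7 to -0.45 and -0.16. *Plk1*, *Aurka* and *Aurkb* had adjusted ratios of 0.1, -0.06 and -0.12, and *Bub1b* and *Birc5* had -0.16 and -0.12. The 4 genes past 1.5-fold after adjustment had 4819 to 11368 annotated exon bases, and *Plk1*, *Aurka* and *Aurkb* 2203 to 2946. *Bub1*, *Bub1b* and *Birc5* had 4354, 4279 and 3414. *Top2a*, with 9070, was not past this limit after adjustment. With 1 library on each side there is no test. The part of gene length, library preparation or proliferation in these differences was not tested.

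*Cdkn2a* and *Ccnd3* have the same GC content over their annotated exons, 59.6%, but which *Cdkn2a* exons carried the reads is not known. *Cdkn2a* was lower in replicate 3 than in replicate 4 by a log2 ratio of -0.56, or -1.16 after an adjustment by the GC content of its annotated exons, while *Ccnd3* had 0.61 and 0.02.

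*Cdk2* lies beside *Pmel*, the gene of a melanosome matrix protein, in mm9. The genes lie on opposite strands, with 1206 bases between their starts, and are read away from each other. *Pmel* measured 592.43, 622.37 and 511.76 FPKM in replicates 1, 3 and 4, and *Cdk2* 49.53, 45.14 and 58.6. Both genes were chosen for this remark after their values had been seen.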
